A study of Mus musculus with 55 samples.

Results

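The genes described here write and erase 5-methylcytosine, the methyl mark that mammalian cells place mainly on CpG dinucleotides. They were chosen by name, from 9 symbols (Dnmt1, Dnmt3a, Dnmt3b, Dnmt3l, Uhrf1, Tet1, Tet2, Tet3 and Tdg), and 8 of them have a row in both deposited tables. The table of CCNA-GFP cells lists 9911 genes and that of CTCF-AID cells 10237, with 9574 genes in both. Tet3 has no row in either table and was not analysed here. Both tables hold pre-mRNA, quantified as TPM, a measure scaled for transcript length and library size, so a value follows ongoing transcription more closely than the amount of mature mRNA or protein. DNA methylation itself was not measured.

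The data come from E14Tg2a mouse embryonic stem (ES) cells grown in serum and LIF. CCNA-GFP cells carry a cyclin A reporter fused to GFP and gave 19 libraries. CTCF-AID cells carry an auxin-inducible degron on the insulator and architectural protein CTCF, come from a single clone, and gave 18 libraries without the auxin IAA (−IAA) and 18 with it (+IAA, at 0.5 mM). In both lines, cells were held before mitosis with 10 µM RO-3306 for 4 h and then in mitosis with 50 ng/ml nocodazole for 4 h, collected by shake-off (mitotic cells) and released for 20 to 120 min. IAA was given from 2 h before shake-off, and to asynchronous cells for 4 h according to the methods. Mitotic and asynchronous cells have 3 replicates in each series of libraries. The time points after release have 2 replicates, numbered 1 and 2 at 20, 40, 60 and 120 min and 1 and 3 at 30 min (CCNA-GFP only), 50 min (CTCF-AID) and 90 min, while 50 min in CCNA-GFP is a single library of replicate 3 and was not tested. The degron acts on the CTCF protein, so the pre-mRNA of Ctcf is no check of the depletion, and none was made here.

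DNA methylation is kept through cell division by Dnmt1, the maintenance methyltransferase, which copies the mark onto the new strand, and by Uhrf1, which binds hemimethylated CpG and brings Dnmt1 to it. Dnmt3a and Dnmt3b place the mark de novo, and Dnmt3l is a cofactor without catalytic activity that stimulates them and is typical of germ cells and pluripotent cells. Tet1 and Tet2 are dioxygenases that oxidise 5-methylcytosine, and Tdg is the glycosylase that cuts out the most oxidised forms so that base excision repair can restore cytosine. ES cells in serum are known to express both arms of this cycle at the same time.

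Of 10 ES cell markers, 9 were listed in both tables (Pou5f1, Nanog, Zfp42, Esrrb, Klf4, Tfcp2l1, Tdgf1, Utf1 and Sall4), and Sox2 has no row in either. None of the 6 primitive endoderm markers was listed. Replicate 2 stood apart in both lines: the primitive streak gene T was at 0.412 to 1.59 TPM in the CCNA-GFP libraries of replicate 2 against 0.0266 to 0.33 TPM in those of replicates 1 and 3, and at 1.17 to 5.18 TPM against 0.0372 to 0.278 TPM in CTCF-AID. The listed markers of other cell types (T, Eomes, Pax6, Nes and, in CTCF-AID, Thy1 and Col1a1) summed to 5.58 TPM in the asynchronous CCNA-GFP library of replicate 2 and to 0.899 and 1.16 TPM in those of replicates 1 and 3. After release this sum went up along with most genes, from 0.759 to 2.69 TPM in mitosis to 4.34 to 7.42 TPM at 60 min in CCNA-GFP, from 1.76 to 3.51 TPM to 7.58 to 17.6 TPM in CTCF-AID −IAA and from 1.72 to 4.0 TPM to 9.15 to 16.4 TPM with IAA. All of these markers but T were called higher at 60 min in each table that lists them, with median log2 changes of 0.92, 1.33 and 1.35 for the neural pair of Nes and Pax6. On equal totals Nes and Pax6 (medians 0.81 and 0.83 without and with IAA), Col1a1 and Thy1 (0.585 and 0.68) and Eomes were still called higher in CTCF-AID at 60 min, as were Pax6 and Eomes in CCNA-GFP, whereas of the 9 ES cell markers 5 were lower and 2 higher without IAA (median −0.32), 4 lower and 1 higher with it (median −0.27), and 1 lower and 1 higher in CCNA-GFP (median 0.04). The part of these markers in the members' changes was not tested. Over all listed genes, the total per library ran from 13747 to 43370 TPM and was lowest in mitosis and at 20 min.

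The members lie on 6 of the mouse chromosomes, by Gencode vM21 on GRCm38, the build of the deposited tables (mm10). Uhrf1 spans chr17:56303321-56323486 on the plus strand and Dnmt1 chr9:20907209-20959888 on the minus strand. Dnmt3a is at chr12:3806007-3914443, Dnmt3b at chr2:153649450-153687730 and Dnmt3l at chr10:78041947-78063622, all 3 on the plus strand. Tet1 is at chr10:62804570-62908996 and Tet2 at chr3:133463679-133545139, both on the minus strand, and Tdg at chr10:82629828-82650799 on the plus strand. Dnmt3l overlaps Aire on the opposite strand, which both tables list. The libraries are stranded according to the methods.

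RefSeq (GRCm38.p6) gives promoter windows for all 8 listed members, 15 in all, each of 300 bases (250 before and 50 after a transcript start). The letters of 2 common E2F sites, TTTCGCGC and TTTGGCGC, and 4 forms of the core of the CTCF motif were searched on both strands. At least 1 of the E2F sites was found in 0.813% of 32851 promoter windows, and in 1 window each of Uhrf1 and Dnmt1 among the members. The CTCF core written AGGGGGC was found in 10.6% of all windows and in 6 of the members' 15. The form AGGTGGC was in 6.15% of all windows and in 1 of the members'. The form AGAGGGC was in 8.32% of all and in 3 of the members'. The form AGATGGC was in 6.40% of all and in 1 of the members'. At least 1 of the 4 forms was in 27.6% of all windows and in 8 of the members' 15, which belong to 5 members. A longer CTCF pattern, CCNNNAGNNGGC, was added after these matches were known and gave another picture, with 8.61% of all windows and 1 of the members' 15, a window of Dnmt3a. The windows below are those of the pair that maintains methylation, which hold the E2F letters, of Tet1, the member not called higher than in mitosis at any time after release, and of Dnmt3b, which at 120 min was above its mitotic level in one line and below it in the other on the deposited scale. They are written 5′ to 3′ on the gene's strand, with the letters that match an E2F site or 1 of the 4 short CTCF cores, on either strand, in capitals.
Uhrf1, chr17:56304063-56304362 (plus strand): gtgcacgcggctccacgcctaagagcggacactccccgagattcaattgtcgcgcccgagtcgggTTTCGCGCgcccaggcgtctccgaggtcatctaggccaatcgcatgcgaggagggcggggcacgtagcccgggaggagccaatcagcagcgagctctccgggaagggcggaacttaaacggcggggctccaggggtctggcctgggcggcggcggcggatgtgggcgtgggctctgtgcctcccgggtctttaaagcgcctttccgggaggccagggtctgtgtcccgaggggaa
Dnmt1, chr9:20952574-20952873 (minus strand): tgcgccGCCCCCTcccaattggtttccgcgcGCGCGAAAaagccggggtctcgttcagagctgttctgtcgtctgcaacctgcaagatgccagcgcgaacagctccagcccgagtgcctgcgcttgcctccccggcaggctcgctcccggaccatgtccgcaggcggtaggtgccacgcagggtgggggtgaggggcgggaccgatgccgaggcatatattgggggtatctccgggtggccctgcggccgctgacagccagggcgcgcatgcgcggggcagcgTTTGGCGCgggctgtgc
Tet1, chr10:62887275-62887574 (minus strand): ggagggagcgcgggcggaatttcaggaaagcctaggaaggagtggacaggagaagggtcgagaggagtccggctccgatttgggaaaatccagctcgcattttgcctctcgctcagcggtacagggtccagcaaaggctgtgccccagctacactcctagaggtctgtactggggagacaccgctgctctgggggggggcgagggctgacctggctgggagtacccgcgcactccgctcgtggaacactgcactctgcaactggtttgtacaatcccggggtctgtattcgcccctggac
Dnmt3b, chr2:153649199-153649498 (plus strand): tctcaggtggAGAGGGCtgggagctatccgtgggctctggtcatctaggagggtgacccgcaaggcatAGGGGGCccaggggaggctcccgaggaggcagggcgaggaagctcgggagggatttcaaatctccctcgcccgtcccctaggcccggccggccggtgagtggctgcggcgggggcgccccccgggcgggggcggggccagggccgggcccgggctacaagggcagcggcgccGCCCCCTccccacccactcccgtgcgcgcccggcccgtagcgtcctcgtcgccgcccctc
The Uhrf1 window holds TTTCGCGC once. That of Dnmt1 holds both E2F sites and 1 short CTCF core, that of Dnmt3b holds 3 short CTCF cores and no E2F site, and that of Tet1 holds none of these letters. Both windows with E2F letters hold 33 CpG dinucleotides, against 17 for Tet1, 30 for Dnmt3b and a median of 7 over all windows. The members' windows not printed have no E2F letters. They hold 57 in Tet2, 46, 47 and 18 in Dnmt3a, 26 in Tdg and 6, 4 and 3 in Dnmt3l. The other window of Uhrf1 holds 12, and the others of Dnmt1 hold 12 and 2. A match is a description of the letters and not a site of binding.

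Pre-mRNA of Uhrf1 had the largest fitted rise of the members by 60 min in each series of libraries. In CCNA-GFP it was at 4.53, 2.79 and 6.07 TPM in the mitotic libraries of replicates 1, 2 and 3. It stood at 8.65 and 4.91 TPM at 40 min, at 21.3 and 10.9 TPM at 60 min (replicates 1 and 2) and at 18.3 and 24.9 TPM at 90 min (replicates 1 and 3). Every library from 60 min on lay above every mitotic one, and the mean ratio to the mitotic library of the same replicate was 4.30 at 60 min. In CTCF-AID without IAA it went from 7.66, 4.39 and 6.26 TPM in mitosis to 21.6 and 16.6 TPM at 60 min, and with IAA from 7.37, 4.56 and 6.44 TPM to 20.5 and 15.0 TPM. Uhrf1 was the one member called at 40 min in CCNA-GFP, with a log2 fold change of TPM + 1 against mitosis of 0.71 ± 0.17 (SE; limma with the replicate as a block, adjusted p = 0.0017). This call is lost on equal totals (0.21) and with no replicate block (0.51). At 60 min its fitted log2 fold change was 1.82 ± 0.17 in CCNA-GFP, 1.62 ± 0.18 in CTCF-AID −IAA and 1.50 ± 0.18 with IAA (limma adjusted p = 4.7e-09, 1.6e-08 and 4.8e-08). These exceed the changes of 96.9%, 97.0% and 94.6% of all listed genes.

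Dnmt1 was first called higher at 60 min in CCNA-GFP and at 50 min in both arms of CTCF-AID. In CCNA-GFP the mitotic libraries held 4.25, 2.82 and 5.37 TPM of it, and those at 40 min 4.75 and 3.12 TPM, within the mitotic range. At 60 min it reached 8.87 and 5.20 TPM, the second still within that range, and at 90 min 7.75 and 11.9 TPM. In CTCF-AID −IAA it rose from 4.02, 2.95 and 4.43 TPM in mitosis to 7.44 and 7.18 TPM at 60 min, with no overlap, and in CTCF-AID +IAA from 4.13, 2.87 and 4.12 TPM to 6.92 and 6.25 TPM. The fitted log2 fold change at 60 min was 0.83 ± 0.15 in CCNA-GFP, 0.94 ± 0.16 without IAA and 0.84 ± 0.16 with it (limma adjusted p = 4.4e-05, 6.5e-06 and 3.1e-05). The median of all listed genes rose by 0.79, 0.63 and 0.63 on the same scale, so that Dnmt1 lay 0.04, 0.31 and 0.20 above it and Uhrf1 1.03, 0.98 and 0.87. After each library was scaled to the same total, Dnmt1 was called lower at 60 min in CCNA-GFP (−0.31), and was at 0.12 and 0.01 without and with IAA, not called.

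**Figure D1:**
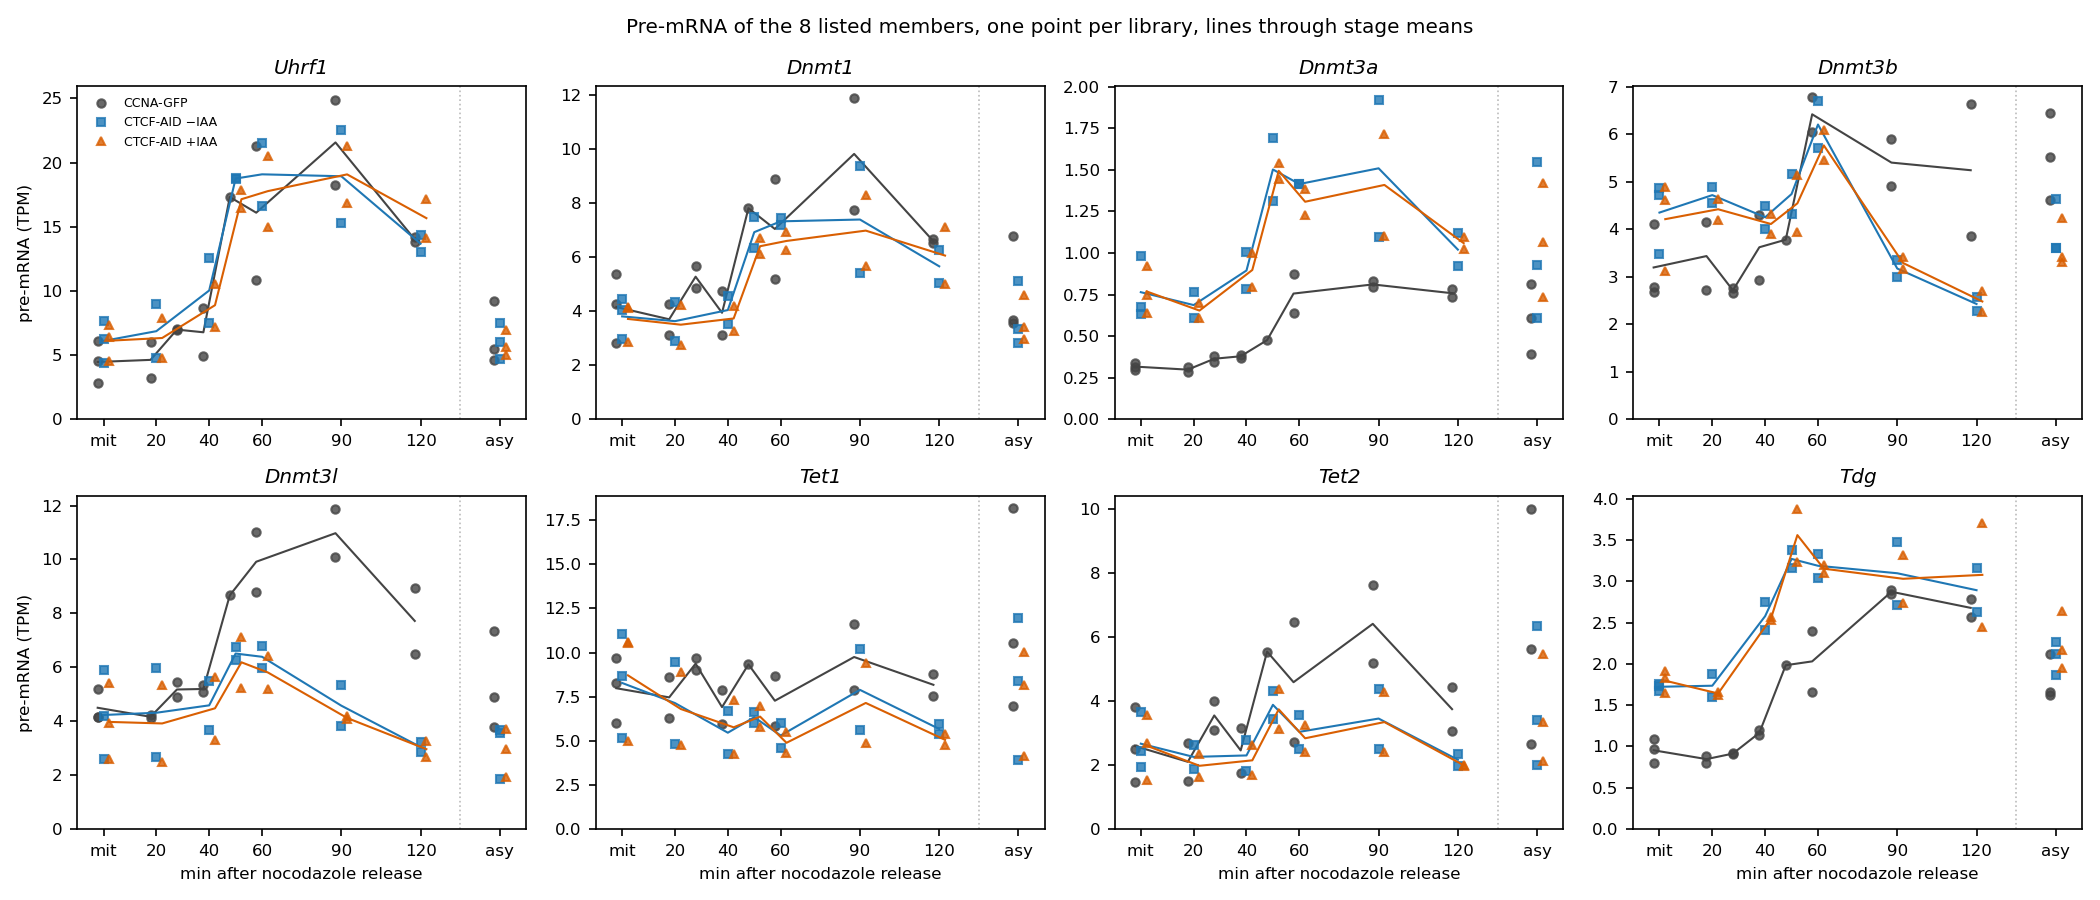
Pre-mRNA in TPM (y axis, linear from 0) of each of the 8 listed members in mitotic cells (mit), at the minutes after release from nocodazole and in asynchronous cells (asy, right of the dotted line). Each point is a library, and lines join the stage means (3 libraries in mitotic and asynchronous cells, 2 at times after release, 1 at 50 min in CCNA-GFP); Uhrf1 climbs in the 3 series of libraries, whereas Tet1 has no called rise and Dnmt3b and Dnmt3l fall after 60 min in CTCF-AID, and on the scale of equal library totals Uhrf1 alone is called higher at 60 min.

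Among the de novo enzymes, Dnmt3a was the member at the lowest level. It stood at 0.314, 0.299 and 0.337 TPM in mitotic CCNA-GFP cells and at 0.875 and 0.636 TPM at 60 min, and the libraries did not overlap. In CTCF-AID its mitotic level was 0.674, 0.635 and 0.984 TPM without IAA, and 1.42 and 1.41 TPM were reached at 60 min. Values this low move in visible steps, since each library's values are multiples of 0.0184 to 0.0381 TPM. Its log2 fold change of TPM + 1 at 60 min, 0.44 ± 0.08 in CCNA-GFP and 0.57 ± 0.08 and 0.50 ± 0.08 in CTCF-AID without and with IAA, passed the test in each (limma adjusted p = 4.2e-05, 7.7e-07 and 5.3e-06), and the pseudocount makes it smaller than the ratio of TPM, which averaged 2.46, 2.17 and 1.90. After scaling to the same total its change was −0.01 in CCNA-GFP, 0.07 without IAA and 0.00 with it, not called.

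On the deposited scale Dnmt3b was above its mitotic level at 120 min in CCNA-GFP and below it in CTCF-AID, whereas on equal library totals it was below in both lines. In CCNA-GFP its pre-mRNA stood at 2.68, 4.12 and 2.78 TPM in mitosis, at 6.05 and 6.79 TPM at 60 min and at 3.85 and 6.63 TPM at 120 min. In CTCF-AID −IAA it stood at 4.87, 4.71 and 3.47 TPM in mitosis, at 5.71 and 6.70 TPM at 60 min and at 2.28 and 2.57 TPM at 120 min, below every mitotic library. With IAA the values at 120 min were 2.25 and 2.71 TPM, again below the mitotic 4.90, 4.61 and 3.13 TPM. Against mitosis, the log2 fold change at 120 min was 0.52 ± 0.13 in CCNA-GFP, −0.70 ± 0.12 in CTCF-AID −IAA and −0.63 ± 0.12 with IAA (limma adjusted p = 0.00067, 2.8e-05 and 7.9e-05), whereas after scaling to the same total it was −0.43 in CCNA-GFP, called lower as well. From 60 to 120 min it fell by 1.07 ± 0.13 without IAA and by 0.96 ± 0.13 with it (limma adjusted p = 8.3e-07 and 2.5e-06). In CCNA-GFP the same difference, −0.28 ± 0.13, missed the threshold (limma adjusted p = 0.099) but passed it without replicate 2 (−0.54). The lines were normalised in separate tables, so the difference between them was not tested.

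Dnmt3l rose by 60 min on the deposited scale, but not on equal totals, and then fell in CTCF-AID on both. It was at 4.15, 4.15 and 5.20 TPM in mitotic CCNA-GFP cells, at 11.0 and 8.80 TPM at 60 min and at 6.50 and 8.95 TPM at 120 min. CTCF-AID −IAA libraries held 5.92, 2.59 and 4.19 TPM in mitosis, 6.79 and 5.99 TPM at 60 min and 2.88 and 3.21 TPM at 120 min, back within the mitotic range. Its log2 fold change at 60 min was 1.10 ± 0.15 in CCNA-GFP, 0.61 ± 0.21 in CTCF-AID −IAA and 0.55 ± 0.21 with IAA (limma adjusted p = 1.1e-06, 0.0087 and 0.017), and on equal totals the changes were −0.08, −0.20 and −0.26, not called. From 60 to 120 min Dnmt3l fell by 0.87 ± 0.22 without IAA and by 0.78 ± 0.22 with it (limma adjusted p = 0.002 and 0.0047), and it was called lower on equal totals too (−0.52 and −0.45). The fall with IAA was not called with no replicate block (limma adjusted p = 0.073). Both times hold the same replicates, so the block alters the error of this fall and not its size. Without replicate 2 neither CTCF-AID rise at 60 min passed the threshold, for Dnmt3l (0.31 and 0.34) or for Dnmt3b (0.28 and 0.28). Without replicate 3 neither was called with IAA (0.50 and 0.23). Nor was Dnmt3b with IAA when each library was divided by the unnamed factor of its values, described under processing (0.27). With no replicate block Dnmt3l was called in neither arm (0.55 and 0.49).

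Tet1, among the erasers, was not called higher than in mitosis at any time after release on either scale. In CCNA-GFP it was at 8.26, 6.01 and 9.67 TPM in mitosis and at 8.68 and 5.87 TPM at 60 min, which overlap. CTCF-AID −IAA libraries had 8.66, 5.15 and 11.0 TPM in mitosis, 6.02 and 6.66 TPM at 50 min (replicates 1 and 3) and 6.03 and 4.58 TPM at 60 min, and those with IAA went from 10.5, 5.0 and 10.6 TPM to 5.78 and 6.96 TPM and then to 5.49 and 4.28 TPM. Each library at 50 and 60 min was below the mitotic library of its own replicate, although the groups overlap, since the mitotic library of replicate 2 was the lowest of its 3. The log2 fold change at 50 min was −0.55 ± 0.19 without IAA and −0.60 ± 0.19 with it (limma adjusted p = 0.011 and 0.006), calls that are lost without replicate 3 and with no replicate block. Ratios to the mitotic library of the same replicate were 0.695 and 0.549 in replicate 1 without and with IAA, and 0.603 and 0.658 in replicate 3. The drop is thus present in both replicates and in both arms. Means over all replicates were 8.28 TPM in mitosis and 6.34 TPM at 50 min without IAA, and 8.71 and 6.37 TPM with it. At 60 min the log2 fold change was 0.08 ± 0.17 in CCNA-GFP and −0.27 ± 0.19 in CTCF-AID −IAA, neither called (limma adjusted p = 0.64 and 0.18), and −0.43 ± 0.19 with IAA (limma adjusted p = 0.042), a call that is lost without replicate 1 (−0.11) and in the fit with no replicate block (−0.67). The fitted change at 60 min was lower still in 6.61%, 1.55% and 1.03% of all listed genes. Tet1 was called lower at 60 min in all 3 series once the libraries were scaled to the same total (−1.13, −1.12 and −1.28).

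Tet2 was called higher at 60 min in each series on the deposited scale, and lower in CTCF-AID on equal totals. It went from 2.51, 1.46 and 3.82 TPM in mitotic CCNA-GFP cells to 6.47 and 2.72 TPM at 60 min, each higher than the mitotic library of its replicate. In CTCF-AID −IAA the mitotic libraries held 2.44, 1.93 and 3.65 TPM and those at 60 min 3.58 and 2.51 TPM, which overlap. The log2 fold change at 60 min was 0.89 ± 0.15 in CCNA-GFP, 0.39 ± 0.11 in CTCF-AID −IAA and 0.36 ± 0.11 with IAA (limma adjusted p = 9.1e-06, 0.0029 and 0.0056), and on equal totals −0.15 (not called), −0.34 and −0.36 (both called lower). With no replicate block the changes were 0.60, 0.15 and 0.12 and none was called. In CTCF-AID the ratio of 60 min to mitosis in replicates 1 and 2 was 1.47 and 1.3 without IAA. With IAA it was 1.21 and 1.56.

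Tdg rose on the deposited scale in each series. In CCNA-GFP it was at 0.801, 0.963 and 1.10 TPM in mitosis, at 2.40 and 1.66 TPM at 60 min, at 2.85 and 2.90 TPM at 90 min and at 2.79 and 2.57 TPM at 120 min. In CTCF-AID −IAA it had already left the mitotic range (1.68, 1.76 and 1.73 TPM) at 40 min, with 2.75 and 2.41 TPM, and stood at 3.33 and 3.04 TPM at 60 min. The log2 fold change at 60 min was 0.67 ± 0.11 in CCNA-GFP, 0.67 ± 0.10 in CTCF-AID −IAA and 0.62 ± 0.10 with IAA (limma adjusted p = 6.5e-06, 8.8e-07 and 2.6e-06), or −0.13, −0.03 and −0.08 on equal totals, not called. From 60 to 120 min the change was 0.29 ± 0.11 in CCNA-GFP (limma adjusted p = 0.049), a call that held on equal totals (0.39) and in none of the other 7 alternatives.

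**Figure D2:**
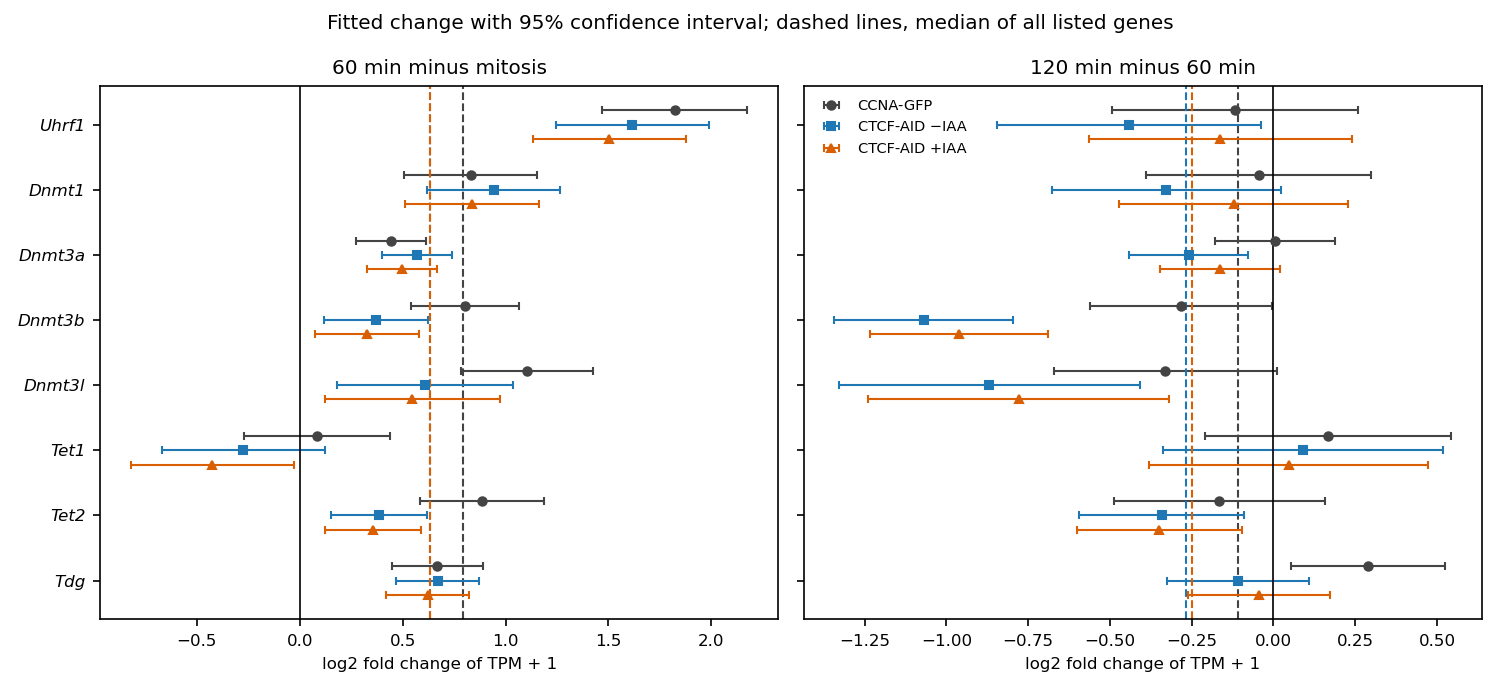
Fitted log2 fold change of TPM + 1 (x axis) from mitosis to 60 min and from 60 to 120 min for each member, with 95% confidence intervals, in CCNA-GFP (circles), CTCF-AID −IAA (squares) and CTCF-AID +IAA (triangles). Dashed lines are the medians of all listed genes. From mitosis to 60 min (medians 0.79, 0.63 and 0.63) Uhrf1 lies above them and Tet1 below, from 60 to 120 min (medians −0.11, −0.27 and −0.25) Tet1 lies above them, and on equal library totals the changes from mitosis to 60 min of Dnmt3b, Dnmt3l, Tet2 and Tdg turn negative in each series.

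Counted together, 7 of 8 members were higher at 60 min in each series on the deposited scale and 1 of 8 on equal totals. With no replicate block they were 6, 5 and 5 in CCNA-GFP, CTCF-AID −IAA and CTCF-AID +IAA (78.1%, 72.8% and 70.4% of all genes), and leaving out replicate 1, 2 or 3 gave 7, 7 and 7 in CCNA-GFP (75.5%, 88.3% and 86.5%), 6, 5 and 7 in CTCF-AID −IAA (79.4%, 81.6% and 83.0%) and 7, 4 and 5 with IAA (80.1%, 76.1% and 79.5%). In CCNA-GFP, 0, 0, 1, 7, 7 and 7 of the 8 exceeded their mitotic level at 20, 30, 40, 60, 90 and 120 min (limma adjusted p under 0.05), against 0.0%, 0.303%, 49.3%, 88.3%, 89.1% and 90.2% of all listed genes. At 20 min none had an unadjusted p under 0.05, and at 30 min Uhrf1 alone did (0.36 ± 0.17; limma adjusted p = 0.42). The member without a call from 60 to 120 min was Tet1. In CTCF-AID −IAA, 0, 3, 4, 7, 4 and 4 of 8 were called higher at 20, 40, 50, 60, 90 and 120 min, against 0.0%, 63.3%, 79.1%, 84.8%, 74.8% and 69.6% of all genes. Called lower were Tet1 at 50 min, Dnmt3b at 90 min and Dnmt3b at 120 min, 1 of 8 each time against 4.56%, 3.37% and 3.15%. For Dnmt3b at 90 min the ratio to mitosis was 0.616 in replicate 1 and 0.964 in replicate 3. At 40 min the 3 were Uhrf1, Tdg and Dnmt3a. With IAA the counts of higher members were the same, 0, 3, 4, 7, 4 and 4 of 8, against 0.0%, 58.7%, 78.2%, 82.2%, 73.8% and 68.2%, and 1 of 8 was lower at 50, 60, 90 and 120 min (Tet1, Tet1, Tet1 and Dnmt3b), against 5.37%, 4.04%, 4.41% and 4.42%. At 90 and 120 min the 4 higher members were Uhrf1, Dnmt1, Dnmt3a and Tdg in both arms. With no replicate block fewer members were called higher at 40 and 120 min in each series, as were fewer of all genes. With IAA the count at 120 min also moved when a replicate was left out. At 20 min no member of either arm had an unadjusted p under 0.05.

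These counts rest on TPM as deposited, in which nearly all genes rise, and depend on that scale. Scaled to the same total, 1 member was called higher and 3 lower at 60 min in each series of libraries, against 36.4% and 33.3% of all genes in CCNA-GFP, 39.4% and 31.1% in CTCF-AID −IAA and 40.7% and 33.2% with IAA. The higher member was Uhrf1 each time, and Dnmt3b and Tet1 were among the lower ones each time, joined by Dnmt1 in CCNA-GFP and by Tet2 in both arms of CTCF-AID. At 120 min on this scale Uhrf1 and Tdg were higher and Dnmt3b and Tet1 lower in CCNA-GFP (28.7% and 23.5% of all genes), Uhrf1 and Tdg higher and 4 members lower in CTCF-AID −IAA (32.0% and 25.9%), and Uhrf1, Tdg and Dnmt1 higher and 4 members lower with IAA (33.5% and 28.7%). The 4 were Dnmt3b, Dnmt3l, Tet1 and Tet2 in both arms.

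**Figure D3:**
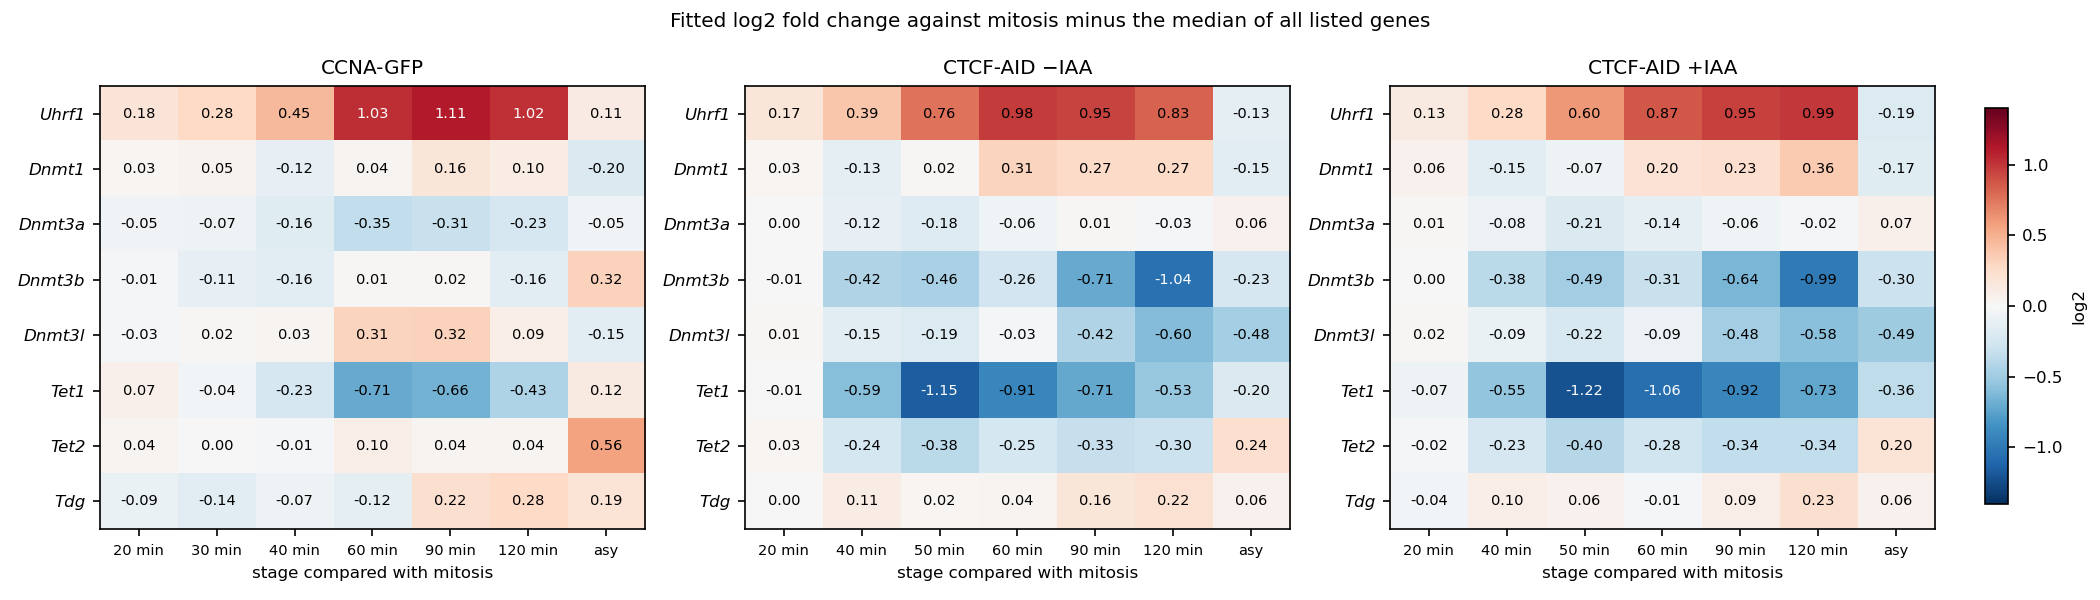
Fitted log2 fold change of each member against mitosis minus the median change of all listed genes, by stage (columns; asy, asynchronous cells) and series of libraries (panels); red is above and blue below the median, and CCNA-GFP at 50 min is left out as a single library. Uhrf1 is above the median at every time after release shown, reaching 1.11 at 90 min in CCNA-GFP, whereas Tet1 reaches −1.15 and −1.22 at 50 min in CTCF-AID.

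Between 60 and 120 min many genes fell back from their peak. In CCNA-GFP 0 of 8 members were called lower at 120 than at 60 min (limma adjusted p under 0.05; 1, Dnmt3b, had an unadjusted p under 0.05) and 1, Tdg, higher, against 28.5% and 9.6% of all genes. In CTCF-AID −IAA 4 of 8 were lower (Dnmt3b, Dnmt3l, Tet2 and Dnmt3a) and none higher, against 53.1% and 7.31%. With IAA 3 of 8 were lower (Dnmt3b, Dnmt3l and Tet2) and none higher, against 50.8% and 7.61%. Of these, Dnmt3b and Dnmt3l stayed lower on equal totals, where the changes of Tet2 (−0.05 and −0.07 without and with IAA) and of Dnmt3a (−0.03 without IAA) were not called. The falls of Tet2 were not called with no replicate block or without replicate 1 either, nor was that of Dnmt3a, which also lost its call without replicate 2 (−0.19). Both times hold the same replicates, so the block alters the error of these falls and not their size. Every Tet2 library at 120 min lay below that of its replicate at 60 min in both arms, as did those of Dnmt3a without IAA. Equal totals also gave 2 members higher at 120 than at 60 min in both arms of CTCF-AID, Tdg (0.19 and 0.24 without and with IAA) and Tet1 (0.42 and 0.37), against 25.6% and 26.6% of all genes.

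Asynchronous cells hold all phases of the cell cycle, and there Uhrf1 and Dnmt1 were called lower than at 120 min on the deposited scale. Uhrf1 stood at 5.45, 4.61 and 9.19 TPM in asynchronous CCNA-GFP cells, against 14.2 and 13.8 TPM at 120 min, and at 5.99, 4.67 and 7.47 TPM against 13.0 and 14.4 TPM in CTCF-AID −IAA. The groups of Uhrf1 do not overlap. Against 120 min, Uhrf1 was lower in asynchronous cells by a log2 fold change of −1.27 ± 0.17 in CCNA-GFP, −1.18 ± 0.18 in CTCF-AID −IAA and −1.38 ± 0.18 with IAA (limma adjusted p = 4.8e-06, 9.6e-06 and 1.1e-06). Dnmt1 stood at 3.54, 3.69 and 6.77 TPM in asynchronous CCNA-GFP cells against 6.50 and 6.66 TPM at 120 min, and at 3.33, 2.82 and 5.11 TPM against 5.04 and 6.26 TPM in CTCF-AID −IAA, and in both the groups overlap through replicate 3. Its log2 fold changes were −0.66 ± 0.15, −0.64 ± 0.16 and −0.73 ± 0.16 (limma adjusted p = 0.001, 0.0014 and 0.00044), changes that with no replicate block (−0.47, −0.51 and −0.60) were not called. On equal totals Dnmt1 was called in CTCF-AID (−0.33 and −0.44) but not in CCNA-GFP (−0.19), and without replicate 2 it was not called in either CTCF-AID arm (−0.39 and −0.42).

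In all, 4 of 8 members were lower in asynchronous CCNA-GFP cells than at 120 min (Uhrf1, Dnmt1, Dnmt3l and Tdg) and none higher, against 63.4% and 5.86% of all genes. Without IAA 3 were lower (Uhrf1, Dnmt1 and Tdg) and 2 higher (Dnmt3b and Tet2), against 51.0% and 7.25%, and with IAA the same members were lower and higher, against 47.2% and 8.43%. With no replicate block fewer members were called lower in each series, as were fewer of all genes. The same held with each library divided by the unnamed factor of its values. Dnmt3b was higher in asynchronous cells by 0.59 ± 0.12 without IAA and by 0.48 ± 0.12 with it (limma adjusted p = 0.0003 and 0.002), and by 0.13 ± 0.13 in CCNA-GFP, not called (limma adjusted p = 0.37) except on equal totals (0.60). Without replicate 1 neither Dnmt3b (0.46 and 0.33) nor Tet2 (0.18 and 0.11) was called higher in CTCF-AID, and Tet2 was not called without IAA when replicate 3 was left out (0.21) nor in either arm with no replicate block (0.545 and 0.57). Equal totals gave 1 lower (Uhrf1) and 3 higher (Dnmt3b, Tet1 and Tet2) in CCNA-GFP, against 26.8% and 24.9% of all genes. In both arms of CTCF-AID they gave 2 lower (Uhrf1 and Dnmt1) and the same 3 higher, against 26.9% and 27.7% without IAA and 26.2% and 29.2% with it, and Tdg was called in none.

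Against mitosis, 6 of 8 members were higher in asynchronous CCNA-GFP cells (all but Dnmt1 and Dnmt3l) and 0 lower, where 70.4% of all genes were higher and 1.97% lower. CTCF-AID −IAA had 2 higher (Dnmt3a and Tet2) and 0 lower, against 34.3% and 5.25%, and CTCF-AID +IAA 3 higher (Dnmt3a, Tet2 and Tdg) and 0 lower, against 40.9% and 5.89%. Dnmt3l, the member with the largest drop, was at −0.36 ± 0.18 and −0.35 ± 0.18 without and with IAA (limma adjusted p = 0.12 in both). On equal totals 3 were higher and 2 lower in CCNA-GFP (24.8% and 20.3% of all genes), 1 higher and 3 lower without IAA (27.2% and 21.4%) and 1 higher and 5 lower with it (29.8% and 22.4%), and Tet2 was among the higher ones each time. On the deposited scale the 6 in CCNA-GFP went to 4 with no replicate block and to 3 without replicate 3 (Dnmt3b, Tdg and Tet2), where the share of all genes fell too, to 46.7% and 47.0%. The counts of higher members in both arms of CTCF-AID went to 0 with no block and without replicate 1 or replicate 3, where 11.6%, 27.0% and 17.3% of all genes were higher without IAA and 17.3%, 37.5% and 26.9% with it.

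Replicates of asynchronous cells differed, with the widest range in Tet1 and Tet2. Tet1 was at 10.6, 6.96 and 18.2 TPM in asynchronous CCNA-GFP cells of replicates 1, 2 and 3, and Tet2 at 5.63, 2.65 and 10.0 TPM. Replicate 2 was the lowest and replicate 3 the highest for both. Asynchronous CTCF-AID cells without IAA gave 8.40, 3.93 and 12.0 TPM for Tet1 and 3.42, 2.02 and 6.36 TPM for Tet2, again lowest in replicate 2, and those with IAA 8.15, 4.14 and 10.1 TPM and 3.35, 2.14 and 5.48 TPM. In the same CTCF-AID libraries the streak gene T stood at 0.0372, 3.48 and 0.0755 TPM without IAA and at 0.059, 5.18 and 0.0738 TPM with it. The part of cells expressing T in the levels of Tet1 and Tet2 was not tested, and in bulk libraries fewer cells of a type and less RNA per cell cannot be told apart. Dnmt3a and Uhrf1 were also lowest in replicate 2 and highest in replicate 3 of asynchronous cells in each series, with ratios of replicate 3 to replicate 2 of 2.08, 2.54 and 1.94 for Dnmt3a and 1.99, 1.6 and 1.4 for Uhrf1, against 2.61, 3.04 and 2.43 for Tet1 and 3.77, 3.15 and 2.56 for Tet2. The totals over all listed genes were highest in replicate 3 as well (28934 against 20541 TPM in replicate 2 in CCNA-GFP), and their part in these ratios was not tested. Dnmt3b did not share this order, with 4.61, 6.45 and 5.52 TPM in asynchronous CCNA-GFP cells.

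Adding IAA changed no member past the thresholds of the comparison between arms (limma adjusted p under 0.1 and an absolute log2 fold change over 0.2, fitted without a block). Of the 8 members, 0 were called in asynchronous cells, in mitosis or at 20, 40, 50, 60, 90 and 120 min, where 1.01%, 0.0%, 0.0%, 0.0%, 0.283%, 0.225%, 0.733% and 0.586% of all genes were, and none had an unadjusted p under 0.05 at any stage. So few genes pass this test in all that 0 of 8 says little about the members. With the replicate as a block 0 of 8 were called at every stage as well, none with an unadjusted p under 0.05, where 2.43%, 0.0%, 0.0%, 0.0195%, 0.987%, 1.01%, 1.71% and 1.43% of all genes were called. Averaged over 20 to 120 min, the log2 difference of +IAA from −IAA ran from −0.08 in Dnmt3l to 0.01 in Tdg, and 0 of 8 members were called against 1.72% of all genes. The tightest interval was that of Tdg, −0.10 to 0.12, and the widest that of Tet1, −0.42 to 0.30 (95% confidence). For Uhrf1 it was −0.28 to 0.20, for Dnmt1 −0.27 to 0.16 and for Dnmt3b −0.17 to 0.10. The block narrowed these intervals, to −0.08 to 0.10 for Tdg, −0.235 to 0.11 for Tet1, −0.21 to 0.12 for Uhrf1, −0.20 to 0.09 for Dnmt1 and −0.14 to 0.08 for Dnmt3b, with 2.12% of all genes called. The IAA effect after release was set against that in asynchronous cells as an interaction, and 0 of 8 members passed (limma adjusted p under 0.1; no unadjusted p under 0.05), as did 0.00977% of all genes. At single stages the intervals were wider, from −1.03 to 0.75 for Tet1 at 120 min.

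**Figure D4:**
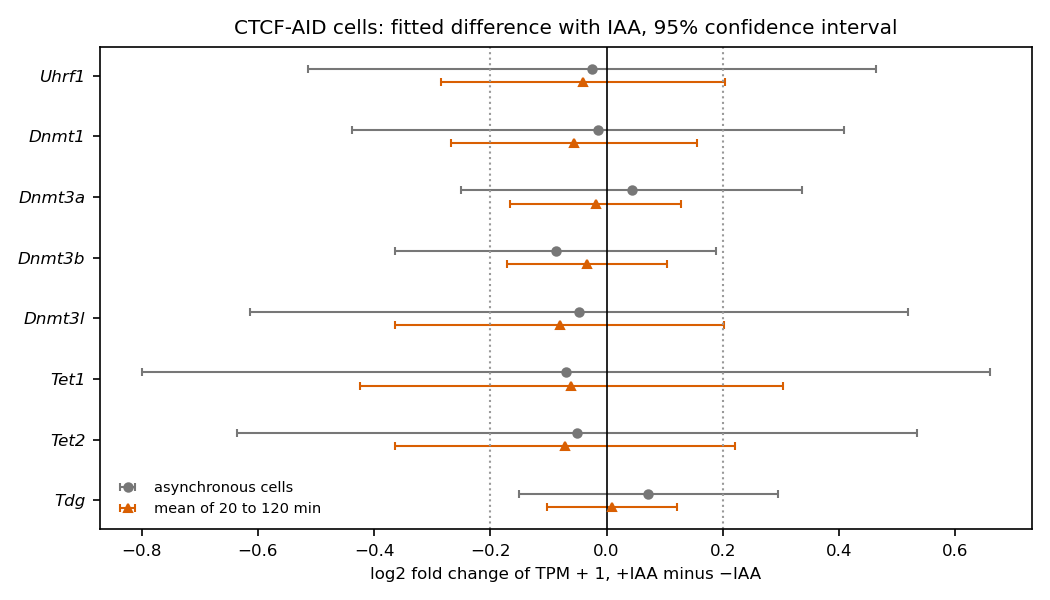
Fitted difference between CTCF-AID cells with and without IAA (x axis, log2 fold change of TPM + 1) for each member, in asynchronous cells (circles) and as the mean over 20 to 120 min (triangles), with 95% confidence intervals; dotted lines mark the fold threshold of 0.2 on either side of 0. Every interval crosses 0, and the means over the release lie between −0.08 and 0.01.

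Other genes of the pathway were followed as 4 lists. Readers of methylated CpG were called higher at 60 min in 9 of 9 cases in each series of libraries, with medians of 0.79, 0.70 and 0.95 on the log2 scale in CCNA-GFP, CTCF-AID −IAA and CTCF-AID +IAA, where 88.3%, 84.8% and 82.2% of all genes were called higher and the medians of all genes were 0.79, 0.63 and 0.63. On equal totals 4, 5 and 5 of the 9 were higher and 2, 1 and 1 lower, where 36.4%, 39.4% and 40.7% of all genes were higher and 33.3%, 31.1% and 33.2% lower. Mbd4, a glycosylase that binds methylated CpG, changed most among them (1.57, 1.34 and 1.49) and Zbtb38 least (0.34, 0.30 and 0.24). The list of base excision repair holds steps that act after Tdg and also other glycosylases. It had 10 of 10 listed genes higher in CCNA-GFP and 11 of 11 in both arms of CTCF-AID, led by the uracil glycosylase Ung (1.98, 1.97 and 1.92), against the same shares of all genes. On equal totals 3 of them were higher in each series and 2, 3 and 2 lower, against the same shares as for the readers.

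Among recruitment factors and cofactors of the writers and erasers, 12 of 15 were higher at 60 min in CCNA-GFP, 13 of 16 in CTCF-AID −IAA and 12 of 16 with IAA, shares close to those of all genes (88.3%, 84.8% and 82.2%). In each CTCF-AID arm 2 of 16 were lower, where 2.7% of all genes were without IAA and 4.04% with it. On equal totals 4, 5 and 5 were higher and 8, 10 and 10 lower, where 36.4%, 39.4% and 40.7% of all genes were higher and 33.3%, 31.1% and 33.2% lower. Cxxc1, which binds unmethylated CpG, rose most (1.75, 1.83 and 1.90), and the histone H3 lysine 9 methyltransferase Ehmt1 had the lowest change, −0.21 in CCNA-GFP (limma adjusted p = 0.098), −0.41 without IAA and −0.49 with it (limma adjusted p = 0.00019 and 2.2e-05). From 60 to 120 min Ehmt1 rose by 0.48, 0.30 and 0.32 (limma adjusted p = 0.0064, 0.011 and 0.0069). Of the genes that supply the methyl donor and the Tet cosubstrate, 6 of 6, 5 of 6 and 5 of 6 were higher at 60 min, again close to the shares of all genes, and 3, 2 and 3 of 6 on equal totals, with 1 lower in each series, against the equal-total shares just given. In this list Idh1, the cytosolic enzyme that makes alpha-ketoglutarate, changed most on the deposited scale (1.74, 1.55 and 1.65). Between the IAA arms no gene of the 4 lists was called on the deposited scale, where Idh1 differed by −0.16 over the release (limma adjusted p = 0.56). On equal totals Prdm14, which represses the de novo enzymes, was called lower with IAA in asynchronous cells (−0.285; limma adjusted p = 0.092) and Idh1 at 120 min (−0.42; limma adjusted p = 0.017), both named after their values were seen.

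The course of each member over 25 stage means (9 of CCNA-GFP and 16 of CTCF-AID, libraries centred on their median) was compared with 6604 genes listed in both tables at a mean of at least 1 TPM. The stages share libraries' depth and the tables' scaling, so the correlations are descriptions. Fkbp5 and Tns3 were most like Tet1 (Pearson r = 0.99 and 0.986), Cherp and Plxnb2 most like Uhrf1 (0.975 and 0.971), and Ddx19a and Erich1 most like Dnmt1 (0.89 and 0.878). Dnmt3l was closest to Ppp1cc and Pdxdc1 (0.935 and 0.915), Dnmt3b to Pkm and Aff4 (0.903 and 0.889) and Dnmt3a to Atp6v0a1 and Hmbox1 (0.923 and 0.917). Tet2 was closest to Zfp740 and 2410137M14Rik (0.926 and 0.918), and Tdg, the member with the least similar neighbours, to Polr2m and Zranb2 (0.839 and 0.807). No member was among the 2 genes nearest to another member. Dnmt3a could not be, since its mean in CCNA-GFP was under 1 TPM and it was not among the genes compared.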

How the data were processed

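RNA-seq was done on ribosome-depleted, stranded, paired-end libraries of 19 CCNA-GFP and 36 CTCF-AID samples, and replicates are independent time courses. The authors aligned the reads with STAR to mm10, used RSEM with a Gencode vM12 annotation to which a pre-mRNA isoform of each gene had been added, and deposited the TPM of that isoform for genes that exceeded 0.5 TPM either in asynchronous cells or in 2 or more samples after mitosis. The deposited TPM of each library are whole multiples (within 0.1 of a step) of 0.01 times a factor of 1.84 to 3.81, which the sources used here do not name. Read numbers, and thus counting errors, are unknown, so only the spread between replicates was available as an error. The headers of the asynchronous CTCF-AID libraries are garbled and were read with the column names of the study's own gene table.

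Each table was fitted separately with limma 3.58.1 (R 4.3.3; lmFit, eBayes with a trend) on log2(TPM + 1), and p-values were adjusted by Benjamini-Hochberg over all its genes. Stages were compared with the replicate number as a block (adjusted p under 0.05), and +IAA with −IAA without one (adjusted p under 0.1 and an absolute log2 fold change over 0.2). Equal replicate numbers pair the libraries, because libraries of the same number deviated together, with r over 0.1 in 22 of 22 comparisons of stages in CCNA-GFP (median r = 0.58) and 100 of 100 in CTCF-AID (median r = 0.56), although with 2 shared replicates a pair gives 1 value. No library was a copy of another (at most 0.313% of values identical between replicates). On simulated data, a log2 change of 1 in 200 genes was recovered in 99.5% of them at 60 min in each table, and one of 0.3 in 18.5% in CCNA-GFP and 31.5% in CTCF-AID −IAA, or 83% for the mean effect of IAA. In the data most genes were called at 60 min, which loosens the adjusted threshold, so the shares recovered at 60 min do not carry over. Alternatives were a pseudocount of 0.1, a mean of at least 1 TPM, libraries scaled to the same total or divided by their factor, the block reversed, and each replicate left out. All listed members were named, with the genes of the pathway lists that changed most and least, and the 2 genes most like each member. The members and lists were chosen with earlier results of these data known. Other calculations used Python 3.11.15 with pandas 2.3.3.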

Additional observations from a re-analysis of the deposited data

Results flagged for a closer look

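Dnmt3b had changes of opposite sign in the untreated series of the cell lines at 40, 90 and 120 min, shared by both replicates of a line each time. At 20 min the mean ratios to mitosis were 1.02 and 0.982, and the replicates of CTCF-AID differed in sign. At 60 min it was called higher in both lines (fitted changes 0.80 and 0.37), and at 40 min its fitted change was called in neither (limma adjusted p = 0.52 and 0.56). Against mitosis, the mean log2 change of TPM + 1 within replicates was 0.07 in CCNA-GFP and −0.14 in CTCF-AID −IAA at 40 min, 0.77 and −0.30 at 90 min, and 0.49 and −0.76 at 120 min. The −0.30 rests mainly on 1 replicate, since the 2 replicates gave −0.55 and −0.04. The lines were normalised in separate tables and the difference between them was not tested. On equal library totals Dnmt3b was lower than in mitosis at 120 min in both lines.

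Dnmt3l differed in sign between the arms of CTCF-AID at 20 min, with mean log2 changes of 0.02 without IAA and −0.03 with it, each shared by both replicates. The difference between these changes from mitosis was not tested. The IAA effect at 20 min, fitted without a block, was −0.10 and not called, and it was not called with the replicate as a block either.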

How the results depend on the processing

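The counts of members and the values of single members were recomputed under each alternative. With a replicate block the IAA comparisons gave 0 called members at every stage, as without it, and the mean effect over the release was −0.06 in Dnmt1, −0.08 in Dnmt3l and 0.01 in Tdg, so the pairing of libraries changed no call there. The setting that moved most was the scale. On equal library totals the log2 change at 60 min reversed in CCNA-GFP for Dnmt1 (−0.31), Dnmt3a (−0.01), Dnmt3b (−0.32), Dnmt3l (−0.08), Tet1 (−1.13), Tet2 (−0.15) and Tdg (−0.13), in CTCF-AID −IAA for Dnmt3b (−0.46), Dnmt3l (−0.20), Tet2 (−0.34) and Tdg (−0.03), and in CTCF-AID +IAA for the same 4 (−0.50, −0.26, −0.36 and −0.08). Dnmt3b at 120 min in CCNA-GFP reversed to −0.43. The changes between 60 and 120 min that reversed were 0.12 in Dnmt1, 0.07 in Uhrf1 and 0.00 in Tet2 in CCNA-GFP, 0.02 in Dnmt1 and 0.19 in Tdg in CTCF-AID −IAA, and 0.21 in Dnmt1, 0.05 in Dnmt3a, 0.21 in Uhrf1 and 0.24 in Tdg with IAA, and the IAA effect on Dnmt3a went to 0.00. Equal totals take away the rise shared by most genes, by construction.

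On equal totals the members called higher than in mitosis were 0, 1, 2, 2 and 3 at 40, 60, 90 and 120 min and in asynchronous CCNA-GFP cells, and those called lower 3, 3, 2, 2 and 2, where 23.7%, 36.4%, 31.8%, 28.7% and 24.8% of all genes were higher and 31.3%, 33.3%, 26.2%, 23.5% and 20.3% lower. In CTCF-AID −IAA they were 0, 1, 1, 1, 2 and 1 higher and 4, 4, 3, 4, 4 and 3 lower over the 5 times from 40 to 120 min and in asynchronous cells, and with IAA 0, 1, 1, 1, 3 and 1 higher and 4, 5, 3, 4, 4 and 5 lower, where 27.2% to 40.7% and 29.8% to 41.0% of all genes were higher and 21.4% to 36.7% and 22.4% to 38.6% lower. Between 60 and 120 min 2 were higher in each arm and 2 lower, against 25.6% and 26.5% of all genes without IAA and 26.6% and 27.2% with it. Against 120 min, 3 were higher and 1 lower in asynchronous CCNA-GFP cells (24.9% and 26.8%), and 3 higher and 2 lower in both arms of CTCF-AID (27.7% and 26.9% without IAA, 29.2% and 26.2% with it).

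With values divided by each library's factor, 4 members instead of 1 were higher at 40 min in CCNA-GFP (64.5% of all genes instead of 49.3%), 0 instead of 1 were higher at 120 than at 60 min (7.41%), and in asynchronous cells against 120 min 1 was higher and 1 lower in CCNA-GFP (8.66% and 29.1%), 1 lower without IAA (20.9%) and 2 lower with it (23.0%). Without IAA 6 instead of 4 were lower at 120 than at 60 min (58.9%) and 3 instead of 2 higher in asynchronous cells than in mitosis (66.0%). Tet1 went to −0.06 at 60 min in CCNA-GFP and to −0.00 from 60 to 120 min without IAA, Dnmt1 to 0.05 from 60 to 120 min in CCNA-GFP, and the IAA effects on Dnmt3a, Dnmt3b and Uhrf1 each to 0.01. With a pseudocount of 0.1, or with a mean of at least 1 TPM, no member was higher at 120 than at 60 min in CCNA-GFP, and with that minimum, which drops Dnmt3a in CCNA-GFP, 1 instead of 2 was higher in asynchronous cells than in mitosis without IAA.

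With no replicate block Tet1 at 60 min in CCNA-GFP was −0.12, and fewer members were called, with the share of all genes called in the same fit in brackets. In CCNA-GFP 0 (23.8%) were higher at 40 min, 6 (78.1%) at 60 min, 5 (79.3%) at 120 min and 4 (46.7%) in asynchronous cells, 0 (1.79%) were higher at 120 than at 60 min, and 2 (35.6%) lower in asynchronous cells than at 120 min. Without IAA 1 (43.5%) was higher at 40 min, 5 (72.8%) at 60 min, 2 (42.3%) at 120 min and 0 (11.6%) in asynchronous cells, 0 (1.86%) lower at 50 min, 2 (33.2%) lower at 120 than at 60 min, and 1 (3.43%) higher and 2 (23.9%) lower in asynchronous cells than at 120 min. With IAA 1 (40.0%) was higher at 40 min, 5 (70.4%) at 60 min, 3 (43.7%) at 120 min and 0 (17.3%) in asynchronous cells, 0 (2.22%), 0 (2.62%) and 0 (1.96%) lower at 50, 60 and 90 min, 1 (33.1%) lower at 120 than at 60 min, and 1 (4.35%) higher and 1 (22.4%) lower in asynchronous cells than at 120 min.

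Leaving out a replicate leaves lone libraries at several stages, which are assumed to vary like the rest. The range of the share of all genes called in the same fits stands in brackets. In CCNA-GFP the members higher in asynchronous cells than in mitosis then numbered 3 to 6 (47.0% to 67.8%), 3 without replicate 3, those changed from 60 to 120 min 0 higher (2.39% to 8.47%) and 0 to 2 (6.37% to 33.4%) lower, and 0 to 1 (2.6% to 5.1%) were higher in asynchronous cells than at 120 min. Without IAA 5 to 7 (79.4% to 83.0%) were higher at 60 min (5 without replicate 2), 0 to 1 (1.81% to 5.76%) lower at 50 min, 0 to 1 (2.02% to 3.22%) at 90 min and 1 to 2 (1.48% to 3.0%) at 120 min, 2 to 4 (40.4% to 51.7%) were lower from 60 to 120 min, 0 to 3 (17.3% to 29.9%) higher in asynchronous cells than in mitosis, and 0 to 2 (3.53% to 6.79%) higher and 1 to 4 (27.3% to 51.8%) lower than at 120 min. With IAA 4 to 7 (76.1% to 80.1%) were higher at 60 min (4 without replicate 2, 5 without replicate 3) and 2 to 5 (41.5% to 76.8%) at 120 min, 0 to 1 (3.04% to 5.33%) lower at 50 min, 0 to 1 (1.95% to 3.92%) at 60 min, 0 to 2 (2.72% to 4.7%) at 90 min and 1 to 3 (1.39% to 5.86%) at 120 min, 0 to 3 (26.9% to 37.5%) higher and 0 to 1 (3.19% to 5.38%) lower in asynchronous cells than in mitosis, and 0 to 3 (3.04% to 9.55%) higher and 1 to 4 (21.8% to 57.6%) lower than at 120 min. Changes between 60 and 120 min in CCNA-GFP ran from −0.40 to 0.31 in Dnmt1, −0.11 to 0.12 in Dnmt3a, −0.68 to 0.02 in Dnmt3l, −0.55 to 0.32 in Uhrf1, −0.18 to 0.51 in Tet1 and −0.46 to 0.13 in Tet2, those without IAA from −0.01 to 0.19 in Tet1 and −0.26 to 0.04 in Tdg, and those with IAA from −0.40 to 0.16 in Dnmt1, −0.51 to 0.18 in Uhrf1, −0.18 to 0.27 in Tet1 and −0.28 to 0.20 in Tdg. The IAA effect ran from −0.03 to 0.00 in Dnmt3a and from −0.04 to 0.07 in Tdg. Except for equal totals, whose construction is given above, the cause of each change was not tested. With 2 replicates at most times, log2 changes of 0.3 at 60 min were often not recovered on simulated data with 200 genes changed. Most genes were called at 60 min in the data, so these recoveries do not carry over to its stage tests. TPM without counts give no depth.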
